A study of Mus musculus with 8 samples.

Results

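Cell-cell junction genes were followed in mouse embryonic fibroblasts (MEFs) that carry or lack caveolin-1 and that were grown on stiff or soft substrate. The 9 genes encode the cadherins N-cadherin (Cdh2) and cadherin-11 (Cdh11), the catenins beta-catenin (Ctnnb1), alpha-catenin (Ctnna1), p120-catenin (Ctnnd1) and plakoglobin (Jup), and the junction proteins afadin (Mllt4), nectin-2 (Pvrl2) and the tight junction scaffold Tjp1. They were taken by symbol from a list chosen with earlier results of these data known. All 9 were found among the 12528 genes of the deposited table. Cav1KO libraries held 0 to 3 reads of Cdh2, against 961 to 2200 reads in WT libraries, and their Cdh11 level was 8.97- to 9.70-fold that of WT cells. Cdh11, Ctnnd1 and Jup fell on the stiff substrate in both genotypes, Jup by the most. Ctnnb1 fell in WT cells. Its smaller fall in Cav1KO cells did not pass the test when any 1 library was left out, with values of -0.18 to -0.17 on the log2 scale. Mllt4 rose on the stiff substrate in WT cells, and its stiffness effect differed between the genotypes in the main fit. With 1 library left out, the rise (0.57 to 1.07 on the log2 scale) did not pass the test in 2 of 8 fits. The difference (1.07 to 1.69) did not pass it in 6 of 8. Pvrl2 was higher in Cav1KO cells on both substrates and showed no stiffness effect that passed the test.

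Classical cadherins are calcium-dependent adhesion receptors that bind the same kind of cadherin on a neighbouring cell. Inside the cell their tail binds beta-catenin or plakoglobin, which in turn binds alpha-catenin and through it actin, while p120-catenin binds closer to the membrane and keeps the cadherin at the surface. Nectins form a parallel adhesion system that is tied to actin by afadin, and Tjp1 encodes ZO-1, a scaffold of tight junctions that also binds alpha-catenin and afadin. Fibroblasts use N-cadherin and cadherin-11 rather than the E-cadherin of epithelia, and beta-catenin also acts in the nucleus as a cofactor of Wnt signalling.

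The MEFs were derived from WT and Cav1KO littermates and immortalized, and RNA was taken 24 h after seeding at low confluence on polyacrylamide matrices coated with fibronectin. Each genotype was grown on both substrates, which gave 4 groups of 2 libraries. The Cav1KO cells carry the knockout of Cav1 and the WT cells do not, and the labels name no other allele or agent. The sources used here do not state how many independent isolates stand behind each genotype, so genotype and cell line cannot be told apart, and nothing says that the 2 libraries of a group came from separate cultures, so p-values measure the spread between these libraries, which may be technical.

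The libraries held 17089836 to 19944952 reads over the listed genes. Cav1 was at 949.8 to 1157 CPM (read counts scaled to a common library size) in the WT libraries and at 0.0523 to 0.411 CPM in the Cav1KO libraries. Of 10 fibroblast markers 9 were listed, and their summed level was 9080 to 9328 CPM in WT stiff, 11447 to 11626 in WT soft, 4581 to 5699 in Cav1KO stiff and 13158 to 13203 in Cav1KO soft libraries. None of the 10 epithelial, 8 endothelial or 8 muscle markers was listed and E-cadherin (Cdh1) was among the epithelial ones. Of 8 macrophage markers 2 (Cd68 and Cd14) were listed, at a sum of 24.9 to 40.4 CPM in WT and 92.8 to 103.6 CPM in Cav1KO libraries. The part of these marker differences in the results below was not tested.

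Levels are CPM after TMM normalization, which rescales libraries so that a handful of abundant genes cannot shift all the others. Effects are differences on the log2(CPM + 1) scale from a limma fit over the 12494 genes that reached 1 CPM in 2 or more libraries, all 9 among them, and SE is the standard error. A gene was called where its Benjamini-Hochberg adjusted p was under 0.05. Per kb of transcript, the only scale on which levels of different genes are compared here, Ctnnb1 was the most abundant of the 9 in each group, with group means of 207 to 275 CPM per kb. Ctnnd1 lay at 25.7 to 43.5 and Ctnna1 at 23.8 to 36.3, while Mllt4 had 1.83 to 3.41 CPM per kb.

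**Figure D1:**
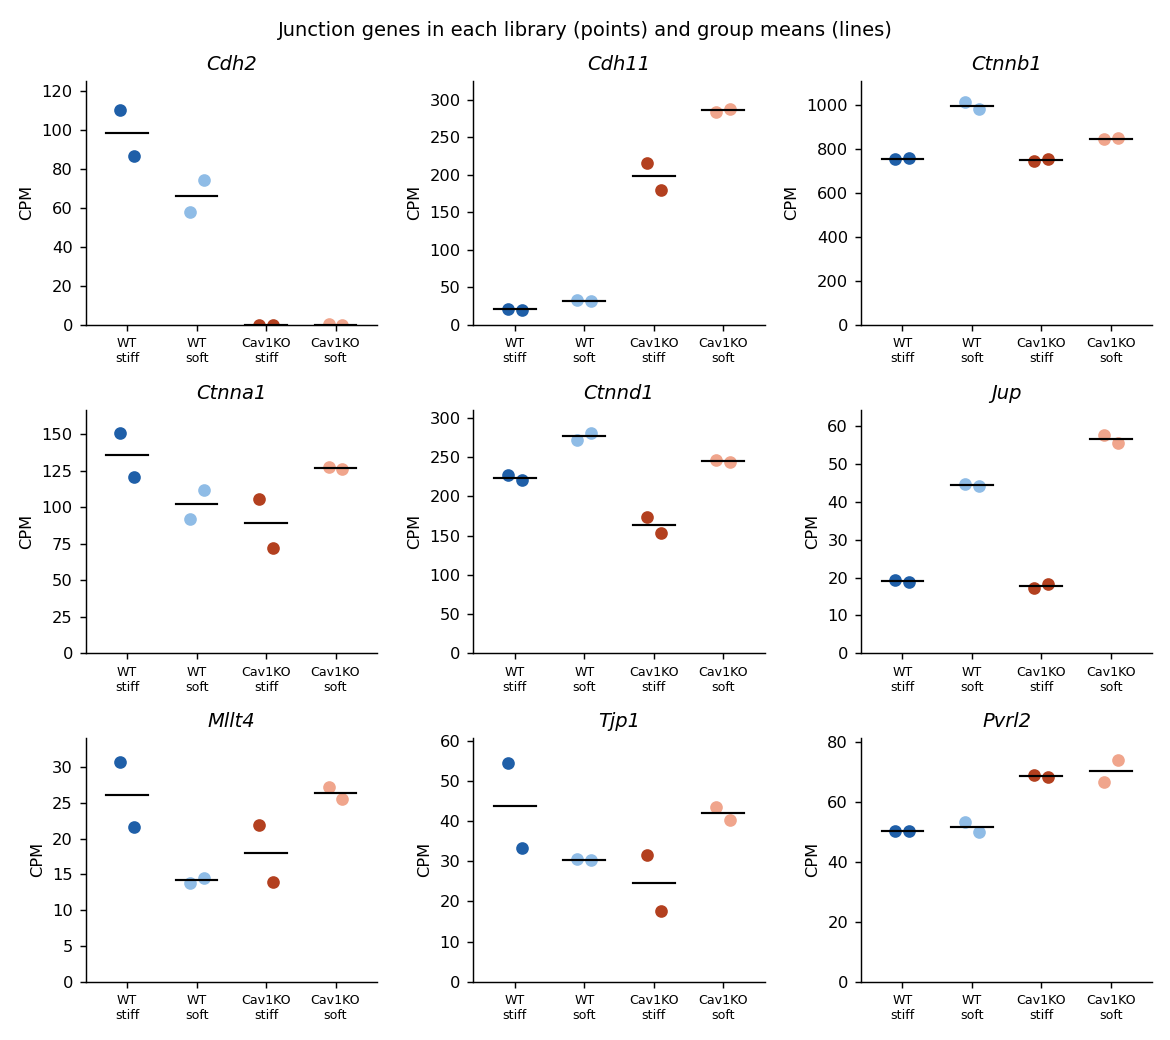
CPM of the 9 genes in each of the 8 libraries (points) and the mean of each group of 2 (lines), with each gene on its own linear axis from 0. Cdh2 never exceeds 0.157 CPM without caveolin-1, Jup is lower on stiff than on soft substrate in both genotypes, and Mllt4, Tjp1 and Ctnna1 have widely spaced points in both stiff groups.

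Cdh2 (ENSMUSG00000024304, chromosome 18 from 16588877 to 16809246 in GRCm38) was the most abundant listed cadherin of WT cells on the stiff substrate. WT cells had 110.5 and 86.9 CPM on the stiff substrate and 58.1 and 74.5 CPM on the soft substrate. Cdh2 had 2 and 0 reads in the Cav1KO stiff libraries and 3 and 2 reads in the Cav1KO soft libraries, where 0 reads allow a level of up to 0.164 CPM. The WT and Cav1KO ranges were thus far apart, and the WT stiff and WT soft ranges did not overlap. On the stiff substrate Cdh2 was 1752-fold higher in WT than in Cav1KO cells (95% exact counting interval 485 to 14475), and on the soft substrate 515-fold (220 to 1587). These intervals cover counting error only. The fitted genotype effects of -6.55 on stiff and -5.89 on soft substrate (limma adjusted p = 3.32e-08 and 4.98e-08) depend on the pseudocount. In bulk RNA fewer cells with the transcript and less of it per cell cannot be told apart. In WT cells Cdh2 rose on the stiff substrate, with a log2 fold change of 0.57 (SE 0.17, limma adjusted p = 0.0237). That call was lost without WT stiff replicate 1 (0.40, adjusted p = 0.164) and without WT soft replicate 1 (0.39, adjusted p = 0.17). With both Cav1KO groups at 3 reads or fewer, no stiffness effect can be given for Cav1KO cells.

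Cdh11 (ENSMUSG00000031673, chromosome 8 from 102632095 to 102785642), the cadherin of mesenchymal and bone-forming cells, had the opposite order of genotypes. Its levels were 21.4 and 19.4 CPM in WT stiff, 32.7 and 31.1 in WT soft, 216.1 and 179.8 in Cav1KO stiff, and 284.4 and 287.6 in Cav1KO soft libraries. No neighbouring groups overlapped in the order Cav1KO soft, Cav1KO stiff, WT soft and WT stiff. The genotype effect was 3.21 on the stiff and 3.13 on the soft substrate (SE 0.10 for both, limma adjusted p = 6.74e-08 and 7.29e-08). Cdh11 fell on the stiff substrate by 0.62 on the log2 scale in WT cells (limma adjusted p = 0.00118) and by 0.53 in Cav1KO cells (0.00194). The difference of the stiffness effects was -0.09 (95% interval -0.40 to 0.23, limma adjusted p = 0.686), and after centring by transcript length it was -0.40 (adjusted p = 0.0341). Stretches that other genes share made up 0.752% of the 60-nt windows of the Cdh11 transcript.

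Among 8 listed genes of the Cdh family, levels per kb of transcript gave the make-up of the cadherin RNA. Cdh2 held 50.05% of the summed level in WT stiff cells (48.0% to 52.1% over the 2 libraries) and 34.1% in WT soft cells (31.5% to 36.8%). Cdh11 held 8.93% and 14.2% in these groups, and 94.8% and 96.7% in Cav1KO stiff and soft cells. T-cadherin (Cdh13), which has no cytoplasmic tail for catenins, held 14.4% in WT stiff and 33.5% in WT soft cells, and P-cadherin (Cdh3) 18.1% and 11.2%. The summed level moved less than its parts, at 40.6 CPM per kb in WT stiff (37.4 to 43.8), 39.9 in WT soft (38.1 to 41.8), 36.9 in Cav1KO stiff (34.0 to 39.9) and 52.4 in Cav1KO soft (52.0 to 52.7). Cav1KO soft was the only group whose libraries lay above all those of the other groups in this sum.

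**Figure D2:**
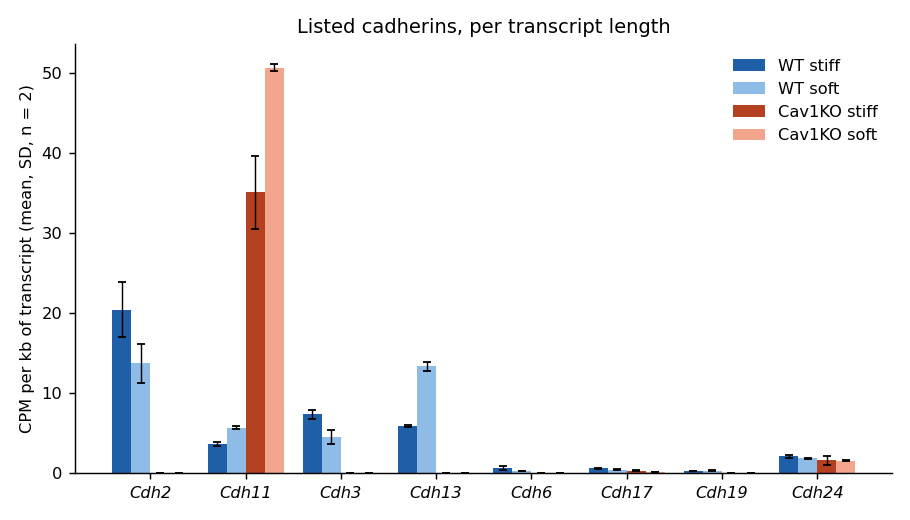
Level of the 8 listed Cdh genes in CPM per kb of transcript on the vertical axis, as the mean (bar) and SD (error bar) of the 2 libraries of each group. Cdh2, Cdh3 and Cdh13 have visible bars in the WT groups only, since their Cav1KO means are at most 0.0268, and Cdh11 reaches 35.1 and 50.6 in Cav1KO stiff and soft cells against 3.62 and 5.65 in WT cells.

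Of the other 6 listed Cdh genes, Cdh3, Cdh6, Cdh13 and Cdh19 were at or near 0 in Cav1KO cells as well, while Cdh24 had 70 to 125 reads in each Cav1KO library (104 to 137 in WT) and Cdh17 had 9 to 19 (20 to 44 in WT). Cdh3 had 0 to 3 reads and Cdh13 0 or 1 read in each Cav1KO library. WT levels of Cdh3 were 379-fold those of Cav1KO cells on the stiff (95% exact counting interval 130 to 1843) and 192-fold on the soft substrate (74.6 to 707), and those of Cdh13 were 777-fold (139 to 30732) and 1943-fold (348 to 76781). Cdh6 and Cdh19 had 0 reads in every Cav1KO library. Set against 3 reads over the group, Cdh6 was at least 55.2-fold higher in WT cells on the stiff and at least 25.2-fold on the soft substrate, and Cdh19 at least 10.04- and 14.6-fold. In WT cells Cdh13 fell on the stiff substrate by 1.16 (SE 0.13, limma adjusted p = 0.000216), from 52.0 and 48.9 to 22.3 and 21.7 CPM.

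Turning to the catenins, Jup (ENSMUSG00000001552, chromosome 11 from 100368958 to 100397763), which can take the place of beta-catenin at the cadherin tail, had the largest stiffness effect of the 9 genes in both genotypes. It was at 19.3 and 18.9 CPM in WT stiff and 44.6 and 44.1 in WT soft libraries, and at 17.1 and 18.2 CPM in Cav1KO stiff and 57.6 and 55.6 in Cav1KO soft libraries. The ratio of the group means was 2.32-fold in favour of soft substrate in WT cells and 3.20-fold in Cav1KO cells. The log2 effects of stiff substrate were -1.17 and -1.62 (SE 0.09 for both, limma adjusted p = 4.73e-05 and 9.82e-06). Their difference, 0.45 (SE 0.12), lay at the threshold (limma adjusted p = 0.0499), and 16 of 20 alternative settings took it to the other side. The genotype effect on Jup was -0.11 on the stiff substrate (95% interval -0.30 to 0.09, limma adjusted p = 0.323), and on the soft substrate Jup was higher in Cav1KO cells by 0.34 (limma adjusted p = 0.00909), a call lost without Cav1KO soft replicate 1 (0.32, adjusted p = 0.0771).

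Ctnnb1 (ENSMUSG00000006932, chromosome 9 from 120929216 to 120960507) was at 754.2 and 757.5 CPM in WT stiff, 1013.0 and 980.2 in WT soft, 745.3 and 752.2 in Cav1KO stiff, and 843.3 and 849.8 in Cav1KO soft libraries. The replicates lay close together and all 4 stiff libraries were below all 4 soft ones. It fell on the stiff substrate by 0.40 in WT cells (SE 0.07, limma adjusted p = 0.00149) and by 0.18 in Cav1KO cells (limma adjusted p = 0.0486). The Cav1KO call was not kept in 15 of 20 alternative settings, among them each of the 8 that left out a library, and centring by GC content turned the value to 0.11. The difference of the effects was -0.22 (95% interval -0.44 to -0.01, limma adjusted p = 0.134). On the soft substrate Ctnnb1 was lower in Cav1KO cells by 0.23 (limma adjusted p = 0.016), and by 0.09 with quantile normalization (limma adjusted p = 0.249). That call was also lost in 3 of 8 fits that left out a library. On the stiff substrate the genotype effect was -0.01 (-0.17 to 0.14). The gene Ulk4 lies on the opposite strand and shares 18.1% of the 60-nt windows of the Ctnnb1 transcript. Whether strand was used in counting is not given in the sources used here, so Ulk4 reads may be among those counted for Ctnnb1. Their share was not tested. Ulk4 itself was at 0.741 to 3.92 CPM, against 745.3 to 1013.0 CPM for Ctnnb1.

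Ctnnd1 (ENSMUSG00000034101, chromosome 2 from 84600071 to 84650765) was at 226.9 and 221.1 CPM in WT stiff, 271.6 and 281.4 in WT soft, 173.4 and 153.0 in Cav1KO stiff, and 246.4 and 243.9 in Cav1KO soft libraries. The order was WT soft, Cav1KO soft, WT stiff and Cav1KO stiff, with no overlap between neighbours. It fell on the stiff substrate by 0.30 in WT cells (SE 0.08, limma adjusted p = 0.0109) and by 0.59 in Cav1KO cells (0.000298), and the difference of the effects was 0.28 (95% interval 0.04 to 0.53, limma adjusted p = 0.104). The WT call was lost at adjusted p = 0.053 without WT stiff replicate 2 and 0.0544 without WT soft replicate 2. On the stiff substrate Ctnnd1 was lower in Cav1KO cells by 0.46 (limma adjusted p = 0.00121), and on the soft substrate the effect was -0.17 (limma adjusted p = 0.0846).

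Jup, Ctnnb1 and Ctnnd1 were each called lower on the stiff substrate in both genotypes, the Cav1KO call of Ctnnb1 with the losses given above, and the 250 bases before a RefSeq start site of each (build GRCm38.p6) are printed 5′ to 3′ in the direction of transcription so that their promoters can be compared. Capitals mark GGGCGG or its complement CCGCCC, the letters of the GC box bound by Sp factors. The Jup window is chr11:100397791-100398040 on the minus strand, 27 bases from the annotated start of the gene. The Ctnnb1 window is chr9:120933150-120933399 on the plus strand, 4184 bases inside the annotated gene. The Ctnnd1 window is chr2:84650741-84650990 on the minus strand, 25 bases from the annotated start. Of genes with more than 1 window, the one nearest to the annotated start is shown.
Jup: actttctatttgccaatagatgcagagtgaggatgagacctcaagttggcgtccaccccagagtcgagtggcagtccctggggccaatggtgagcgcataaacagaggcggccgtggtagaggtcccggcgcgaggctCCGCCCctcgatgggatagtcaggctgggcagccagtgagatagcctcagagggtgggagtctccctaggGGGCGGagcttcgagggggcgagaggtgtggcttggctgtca
Ctnnb1: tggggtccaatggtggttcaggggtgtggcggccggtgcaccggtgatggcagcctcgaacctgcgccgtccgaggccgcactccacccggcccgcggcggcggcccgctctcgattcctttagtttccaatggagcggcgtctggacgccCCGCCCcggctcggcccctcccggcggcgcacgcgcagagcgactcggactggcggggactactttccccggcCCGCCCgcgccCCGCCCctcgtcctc
Ctnnd1: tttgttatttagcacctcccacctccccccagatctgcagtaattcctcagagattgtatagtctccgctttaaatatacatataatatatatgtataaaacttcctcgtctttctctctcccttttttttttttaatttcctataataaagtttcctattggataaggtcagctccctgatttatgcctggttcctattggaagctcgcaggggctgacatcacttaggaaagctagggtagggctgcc

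The Jup window holds 2 GC boxes and 62.0% GC, the Ctnnb1 window 3 and 74.8%, and the Ctnnd1 window none and 40.0%, so the letters searched do not unite the 3 genes. RefSeq windows were at hand for 6 of the 9 genes, with 8 start sites in all. Both strands were searched for GGAATG (the TEAD motif), CAGGTG (an E-box), TGANTCA (the AP-1 motif) and GGGCGG, none of which overlaps another. They occur in 12.6%, 17.2%, 6.75% and 32.7% of all 32851 RefSeq windows of 250 bases. No window of the 6 genes holds the TEAD or AP-1 letters. The Pvrl2 window holds 1 E-box and 2 GC boxes, the Mllt4 window 4 GC boxes and the Tjp1 window 2. The Tjp1 start site is 156537 bases from the annotated start of the gene, against 910 for Pvrl2 and 2 for Mllt4.

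Ctnna1 (ENSMUSG00000037815, chromosome 18 from 35118859 to 35254779), the link from beta-catenin to actin, fell on the stiff substrate in Cav1KO cells, while its effect in WT cells had the opposite sign and did not pass the test. Its levels were 150.5 and 120.8 CPM in WT stiff, 92.2 and 111.6 in WT soft, 105.6 and 72.3 in Cav1KO stiff, and 127.7 and 126.2 in Cav1KO soft libraries. Stiff and soft libraries did not overlap within either genotype, but the WT stiff libraries enclosed those of Cav1KO soft. The stiffness effect was 0.41 in WT cells (SE 0.18, limma adjusted p = 0.0891) and -0.53 in Cav1KO cells (0.0307). The difference of 0.94 lay at the threshold (SE 0.25, limma adjusted p = 0.0497). It was not past the threshold in 10 of 20 alternatives, with an adjusted p of 0.0574 in the edgeR test. The stiffness call in Cav1KO cells was lost in 3 of 8 fits that left out a library. Without Cav1KO stiff replicate 2 that effect was -0.26. Ctnna1 was lower in Cav1KO than in WT cells on the stiff substrate by 0.62 (limma adjusted p = 0.018), and the effect was -0.35 (adjusted p = 0.0906) without Cav1KO stiff replicate 2 and -0.46 (0.121) without WT stiff replicate 1.

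**Figure D3:**
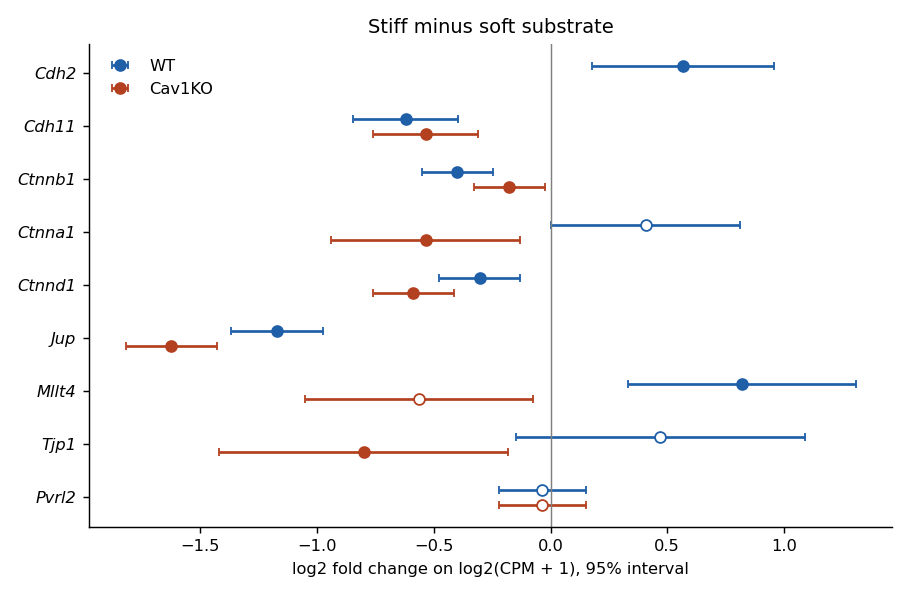
Stiff minus soft difference on the log2(CPM + 1) scale (horizontal axis) for WT (blue) and Cav1KO cells (red), as the limma estimate with its 95% interval, where filled points passed an adjusted p of 0.05 and open points did not. Cdh11, Ctnnb1, Ctnnd1 and Jup lie left of 0 in both genotypes, while Ctnna1, Mllt4 and Tjp1 lie on opposite sides of 0, and no Cav1KO value is drawn for Cdh2.

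Mllt4 (ENSMUSG00000068036, chromosome 17 from 13760539 to 13906150), which ties nectins to actin, showed the largest difference of stiffness effects of the 9 genes. It was at 30.7 and 21.5 CPM in WT stiff and 13.8 and 14.5 in WT soft libraries, and at 22.0 and 14.0 CPM in Cav1KO stiff and 27.2 and 25.6 in Cav1KO soft libraries. WT stiff libraries were above WT soft ones and Cav1KO stiff libraries below Cav1KO soft ones, but in the order of means, Cav1KO soft, WT stiff, Cav1KO stiff and WT soft, each group overlapped the next. The effect in WT cells was 0.82 (SE 0.21, limma adjusted p = 0.0129) and 0.57 (adjusted p = 0.0924) without WT stiff replicate 1, and 0.79 (0.0755) without WT soft replicate 1. In Cav1KO cells it was -0.56 (limma adjusted p = 0.0511). The difference of 1.38 (SE 0.30, limma adjusted p = 0.0324) kept its sign in all 20 alternatives had adjusted p values of 0.000294 to 0.135 over them, and missed the threshold in 7. On the soft substrate Mllt4 was higher in Cav1KO cells by 0.85 (limma adjusted p = 0.00932), a call lost in 2 of 8 fits that left out a library. On the stiff substrate the genotype effect was -0.53 (limma adjusted p = 0.0675).

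Tjp1 (ENSMUSG00000030516, chromosome 7 from 65296165 to 65527781) had the same shape with wider replicates. It was at 54.3 and 33.2 CPM in WT stiff, 30.6 and 30.3 in WT soft, 31.5 and 17.6 in Cav1KO stiff, and 43.5 and 40.2 in Cav1KO soft libraries. Cav1KO stiff libraries overlapped those of WT soft, and WT stiff libraries enclosed those of Cav1KO soft. The stiffness effect was 0.47 in WT cells (95% interval -0.15 to 1.09, limma adjusted p = 0.184) and -0.80 in Cav1KO cells (-1.42 to -0.18, limma adjusted p = 0.0333). The difference was 1.27 (SE 0.38, limma adjusted p = 0.0639). Tjp1 was lower in Cav1KO than in WT cells on the stiff substrate by 0.82 (limma adjusted p = 0.0325), and without Cav1KO stiff replicate 2 the 2 Cav1KO calls became -0.40 (adjusted p = 0.197) for stiffness and -0.42 (0.182) for genotype. The genotype effect was also reduced, to -0.47, without WT stiff replicate 1. Of the 8 fits that left out a library, 5 lost the stiffness call in Cav1KO cells and 6 the genotype call on stiff substrate.

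The spread between replicates of the stiff groups moved with transcript length, and its part in these results was not tested beyond the centring given here. Within a stiff group, replicate 1 exceeded replicate 2 by 0.69 (WT) and 0.80 (Cav1KO) on the log2 scale for Tjp1, by 0.49 and 0.62 for Mllt4, and by 0.31 and 0.54 for Ctnna1. In the longest 10% of transcripts (1242 genes of 6637 nt or more) the median of that difference was 0.22 in WT stiff and 0.30 in Cav1KO stiff libraries, and in the shortest 10% (up to 1169 nt) it was -0.17 and -0.18. The Tjp1 and Mllt4 transcripts are 7049 and 7732 nt long, and that of Ctnna1 3733 nt. The median stiffness effect of the longest 10% was 0.12 in WT and -0.39 in Cav1KO cells. For the centring, the log2 levels of each library were centred within bins of transcript length before the limma fit. The stiffness effects in Cav1KO cells were then -0.06 for Mllt4 (limma adjusted p = 0.681), -0.30 for Tjp1 (0.152) and -0.49 for Ctnna1 (0.0164). The differences of the stiffness effects were then 0.86 for Mllt4 (adjusted p = 0.0175), 0.75 for Tjp1 (0.0637) and 0.83 for Ctnna1 (0.0333).

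**Figure D4:**
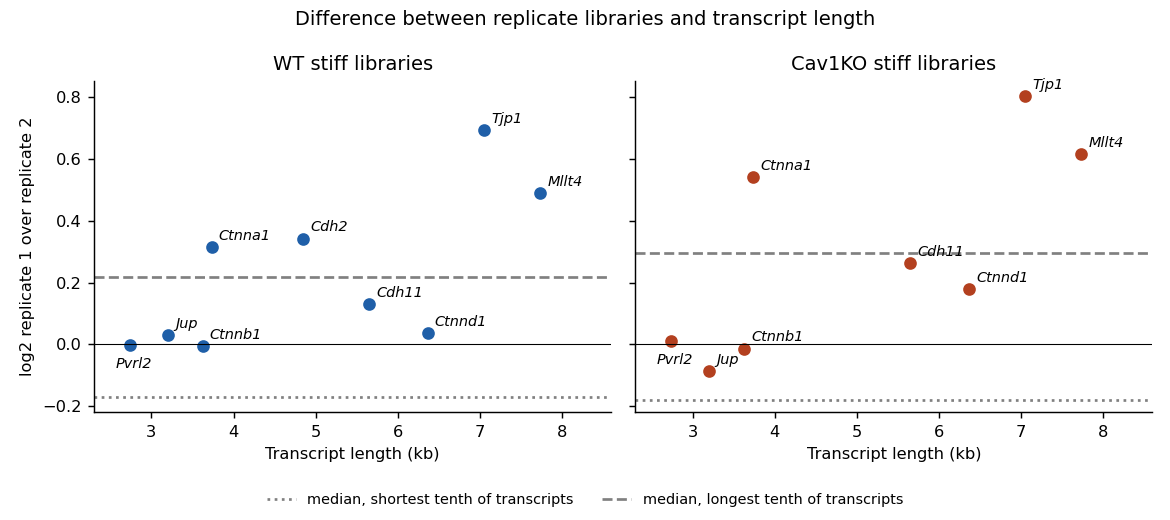
Log2 difference of replicate 1 over replicate 2 (vertical axis, on log2(CPM + 1)) against transcript length in kb for the 9 genes in the WT stiff and 8 in the Cav1KO stiff libraries, with the medians of the longest (dashed) and shortest (dotted) 10% of transcripts. Tjp1, Mllt4 and Ctnna1 lie above the dashed line in both panels, as does Cdh2 in the WT panel, and Jup, Ctnnb1 and Pvrl2 lie within 0.09 of 0.

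Pvrl2 (ENSMUSG00000062300, chromosome 7 from 19716644 to 19750483) was at 50.2 and 50.3 CPM in WT stiff, 53.2 and 49.9 in WT soft, 68.7 and 68.1 in Cav1KO stiff, and 66.5 and 74.0 in Cav1KO soft libraries. All Cav1KO libraries were above all WT libraries, and stiff and soft libraries overlapped in both genotypes. The genotype effect was 0.44 on each substrate (SE 0.08, limma adjusted p = 0.00224 on stiff and 0.00207 on soft), and it passed the threshold in all 20 alternatives. The stiffness effect was -0.04 in WT (95% interval -0.22 to 0.15) and -0.04 in Cav1KO cells (-0.22 to 0.15), and the difference of the effects was 0.00 (-0.26 to 0.26).

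**Figure D5:**
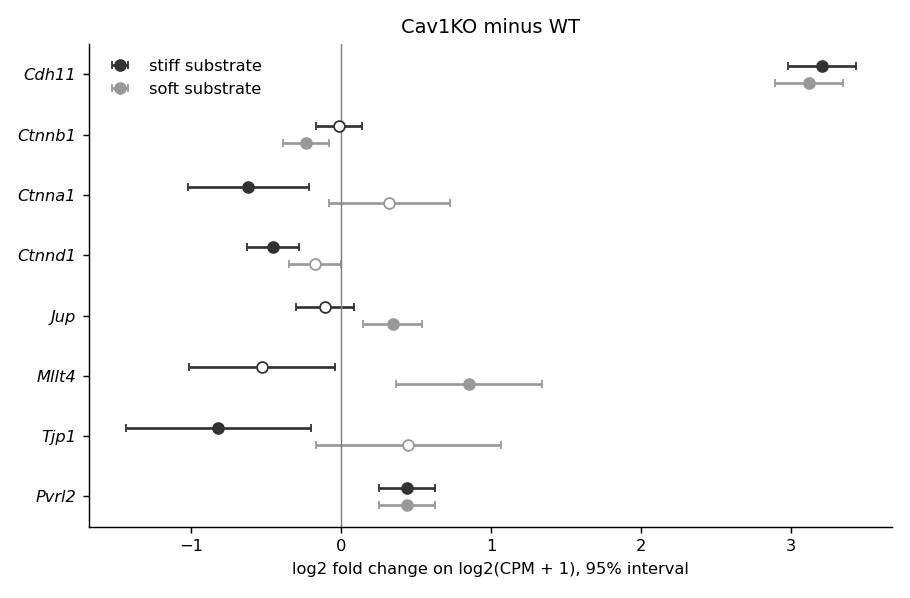
Cav1KO minus WT difference on the log2(CPM + 1) scale (horizontal axis) on stiff (black) and soft substrate (grey), as the limma estimate with its 95% interval, for the 8 genes other than Cdh2, where filled points passed an adjusted p of 0.05. Cdh11 lies at 3.21 and 3.13 and Pvrl2 at 0.44 on both substrates, and Ctnna1, Mllt4, Tjp1 and Jup lie below 0 on stiff and above 0 on soft substrate.

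Over the 9 genes, the stiff substrate gave 2 higher and 4 lower calls in WT cells, where 22.1% of the 12494 genes were called higher, 26.3% lower and 48.4% either way. In Cav1KO cells limma called none of the 8 genes other than Cdh2 higher (0 at an unadjusted p under 0.05, and 0 with edgeR and with DESeq2) and 6 lower, against backgrounds of 27.9% higher, 28.2% lower and 56.1% either way. The difference of the stiffness effects was called above 0 for 3 of 8 genes (Ctnna1, Jup and Mllt4), where 4.47% of all genes were called above, 6.0% below and 10.5% either way. It was called below 0 for none (1 at an unadjusted p under 0.05, and 0 with edgeR and with DESeq2). edgeR called 1 of the 8 above 0, Mllt4. The genotype effect on the stiff substrate was called higher for 2 and lower for 4 of the 9 genes (25.0%, 26.6% and 51.7% of all genes), and on the soft substrate for 4 and 2 (24.1%, 29.9% and 54.0%). Quantile normalization gave 4 and 1 on the soft substrate, and for the difference of the effects centring by length gave 3 and 1 and by GC content 4 and 1. The 2 higher calls of WT cells became 0 without WT stiff replicate 1 or WT soft replicate 1. The 6 lower calls of Cav1KO cells became 3 without Cav1KO stiff replicate 2 or either Cav1KO soft replicate. The 4 lower genotype calls on stiff substrate became 2 without WT stiff replicate 1 or Cav1KO stiff replicate 2. On the soft substrate the 4 higher calls became 2 without Cav1KO soft replicate 1, and the 2 lower became 1 without WT soft replicate 1 or either Cav1KO soft replicate. The 3 calls of the difference became 0 when any library but WT stiff replicate 2 or Cav1KO stiff replicate 1 was left out.

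Around these genes, 124 other junction genes were listed by family, of which 74 were in the table and tested. In WT cells 18 (24.3%) rose and 15 (20.3%) fell on the stiff substrate, near the 22.1% and 26.3% of all genes, with a median effect of 0.03 (over all genes -0.02). In Cav1KO cells 10 (13.5%) rose and 24 (32.4%) fell, against 27.9% and 28.2%, with a median of -0.09 over the 74 genes (over all genes -0.02). All of these Cav1KO calls were among the 65 genes with more than 3 reads in some Cav1KO library, whose median was -0.23. The remaining genes allow no stiffness effect in Cav1KO cells but are counted in both shares. Median centring and quantile normalization each gave 18 higher and 21 lower in Cav1KO cells, and centring by transcript length 17 and 19. Quantile normalization gave 21 higher and 11 lower in WT cells. The 18 higher calls in WT cells became 8 without WT stiff replicate 1 and 7 without WT soft replicate 1. The difference of the effects was called above 0 for 12 and below 0 for 3 of 65 (4.47% and 6.0% of all genes), of which 9 and 1 were among 24 scaffolds and actin linkers. The 12 became 27 without Cav1KO stiff replicate 1, 0 without either Cav1KO soft replicate, and 1 to 5 without WT stiff replicate 1, a WT soft replicate or Cav1KO stiff replicate 2.

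Among catenin relatives, Pkp4, which binds the same region of cadherins as p120-catenin, rose in WT cells by 1.07 (limma adjusted p = 0.00259). Its levels were 48.0 and 35.6 CPM in WT stiff and 16.9 and 21.6 in WT soft libraries, and its effect in Cav1KO cells was 0.51 (limma adjusted p = 0.0546). Arvcf, another p120 relative, fell by 1.07 in WT (limma adjusted p = 0.000351) and by 0.68 in Cav1KO cells (0.00272). The alpha-catenin relative Ctnnal1 was higher in Cav1KO cells on the stiff substrate by 1.14 (limma adjusted p = 0.000143), at 29.7 and 25.6 against 12.4 and 11.6 CPM. In all, 2 of 8 genes of this family (25.0%) rose and 1 (12.5%) fell in WT cells, against 22.1% and 26.3% of all genes.

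Among the nectins and their partners, nectin-3 (Pvrl3) separated the genotypes. It was at 34.5 to 45.3 CPM in the WT and at 0.309 to 0.712 CPM in the Cav1KO libraries, with 6 to 13 reads each, and the fitted effects were -4.74 on stiff and -4.76 on soft substrate (limma adjusted p = 3.46e-08 and 3.42e-08). Nectin-2 was thus higher and nectin-3 lower in Cav1KO cells. Of the 5 genes of this list, nectin-2 not among them, 3 (60.0%) were called higher and 2 (40.0%) lower in Cav1KO cells on the stiff substrate. The shares of all genes were 25.0% and 26.6%. On the soft substrate 2 (40.0%) were called higher and 2 (40.0%) lower, against 24.1% and 29.9% of all genes. Lmo7, which binds afadin, fell on the stiff substrate by 0.77 in WT and by 1.12 in Cav1KO cells (limma adjusted p = 0.00422 and 0.000488), and Ssx2ip, an afadin partner, rose by 0.84 in Cav1KO cells (0.00291).

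Of the 24 scaffolds and actin linkers, 6 (25.0%) rose and 2 (8.33%) fell on the stiff substrate in WT cells, against 22.1% and 26.3% of all genes. In Cav1KO cells 6 (25.0%) rose and 10 (41.7%) fell, against 27.9% and 28.2%, so the share that rose was near the background in both genotypes. Scrib, a polarity scaffold, rose in both, by 0.88 in WT (limma adjusted p = 0.000319) and by 0.56 in Cav1KO cells (0.00242). Lima1, an actin-binding partner of alpha-catenin, was at 177.3 and 176.9 CPM in Cav1KO soft against 64.9 and 38.3 CPM in Cav1KO stiff libraries, an effect of -1.81 (limma adjusted p = 0.000273), and was at 28.6 to 53.1 CPM in WT cells. Sptbn1, a spectrin, fell in Cav1KO cells by 1.42 (limma adjusted p = 0.00354), and its difference of effects was 1.90 (0.0327). That call was lost without WT stiff replicate 1 or any 1 of the 4 soft libraries, at an adjusted p of up to 0.133. Its transcript of 9107 nt is among the longest 10%, and its Cav1KO stiff libraries were at 57.5 and 28.9 CPM. Wtip, a LIM-domain junction protein with a transcript of 1962 nt, had a difference of the opposite sign, -1.03 (limma adjusted p = 0.0131), with 41.3 and 45.1 CPM in WT stiff, 58.8 and 50.5 in WT soft, 78.9 and 94.97 in Cav1KO stiff and 50.7 and 55.2 in Cav1KO soft libraries. The call of that difference was lost without WT stiff replicate 1, WT soft replicate 1 or either Cav1KO soft replicate. Its values ran from -1.16 to -0.90 over the 8 fits that left out a library. The actin-binding scaffold Shroom3 was higher in Cav1KO cells by 2.17 on stiff and 2.20 on soft substrate (limma adjusted p = 1.53e-05 and 1.35e-05).

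Genes of other junction types also separated the genotypes. Cxadr, an adhesion receptor at tight junctions, rose on the stiff substrate by 0.79 in WT and by 1.196 in Cav1KO cells and was 6.58-fold higher in Cav1KO cells on stiff substrate (limma adjusted p = 5.35e-06). Connexin-43 (Gja1), the main gap junction protein of fibroblasts, rose on the stiff substrate by 0.29 in WT (limma adjusted p = 0.0177) and by 0.85 in Cav1KO cells (6.34e-05). Its difference of effects was -0.56 (limma adjusted p = 0.0286), with an adjusted p of up to 0.131 over the alternatives. That call was lost in 5 of 8 fits that left out a library (WT stiff replicate 1, WT soft replicate 2, Cav1KO stiff replicate 2 and each Cav1KO soft replicate). Of 8 listed connexin and pannexin genes, 6 (75.0%) were lower in Cav1KO cells on each substrate, against 26.6% of all genes on stiff and 29.9% on soft substrate. None of the 10 desmosome genes was listed.

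Among 14 genes of cadherin turnover, 4 (28.6%) fell on the stiff substrate in WT cells, near the 26.3% of all genes, and 8 (57.1%) in Cav1KO cells, against 28.2%. The receptor phosphatase Ptprm, which binds cadherin complexes, fell by 0.57 in WT (limma adjusted p = 0.00847) and by 1.91 in Cav1KO cells (2.12e-05), and the difference of 1.33 passed the test (0.00929), though not without either Cav1KO soft replicate (0.0623 and 0.0647). It was at 26.3 and 26.6 CPM in Cav1KO soft libraries and at 3.93 to 7.36 CPM in the other 6. Ptprf, a phosphatase of the same class, had a difference of 1.40 (limma adjusted p = 0.0108), with 61.7 to 76.6 CPM in the WT libraries, 16.2 and 11.9 in Cav1KO stiff and 35.7 and 36.5 in Cav1KO soft libraries. That call was lost without WT soft replicate 1 or either Cav1KO soft replicate, at an adjusted p of up to 0.0623.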

How the data were processed

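RNA-seq of poly(A) RNA (500 ng, 60-nt single reads) had been run on 8 libraries. Per the labels, the submitters' processing notes name CASAVA 1.8.2, cutadapt, RSEM 1.2.3 and GRCm38. The authors deposited a signal table of TMM-normalized CPM values for 12528 genes, replicates kept apart. CPM had been assumed in the design, and the values were handled as planned for CPM. All values (100%, tolerance 0.02) were whole multiples of what 1 read is worth, so reads were recovered. They came to 17089836 to 19944952 per library over the listed genes, and reads of other genes are not counted. A count of 0 allows up to 3 reads, and intervals cover counting error only.

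Effects were fitted with limma 3.58.1 (R 4.3.3, Python 3.11.15) on log2(CPM + 1) over the 4 groups, with a mean-variance trend and 4 residual degrees of freedom, for 12494 genes with 1 CPM or more in 2 or more libraries. P-values were Benjamini-Hochberg adjusted over all of these, at a threshold of 0.05. The 5 comparisons were stiff against soft in each genotype, their difference (WT minus Cav1KO), and Cav1KO against WT on each substrate. The script was tested on simulated data. Alternatives were edgeR 4.0.16 and DESeq2 1.42.0 on recovered reads, other pseudocounts (0.5 and 5), filters and scalings, centring within 20 bins of transcript length or GC content, the replicate block, and each library left out. The edgeR test called 2715 genes higher and 3219 lower for stiffness in WT cells, 3464 and 3430 in Cav1KO cells, and 361 and 541 for the difference.

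Gene positions and transcript lengths came from GENCODE M21 (GRCm38), with the longest protein-coding transcript per gene, and promoter windows from RefSeq. Strand use in counting is not given in the sources used here. The members and the gene lists were chosen with earlier results of these data known. Besides the 9 genes, the text names, for each comparison, the listed junction genes that moved furthest, 3 up and 3 down, among those called whose mean reached 5 CPM, and for each of the 9 the 2 genes most correlated with it over the 8 libraries. A gene that this rule names is not reported here. Cdh6, Cdh19 and Ulk4 were named after their values were seen.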

Additional observations from a re-analysis of the deposited data

Results flagged for a closer look

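The stiffness effect differed between the genotypes, by the limma test of the difference itself (WT minus Cav1KO, log2 scale, adjusted p under 0.05), for Mllt4 (1.38), Ctnna1 (0.94) and Jup (0.45) among the 9 genes. Among the named genes of the junction lists it differed for Sptbn1 (1.90), Ptprf (1.40), Ptprm (1.33), Wtip (-1.03), Gja1 (-0.56) and Cdh13 (-1.16). Cdh13 had 0 or 1 read in each Cav1KO library, so its value depends on the pseudocount, and its adjusted p was 0.672 with edgeR and 0.706 with DESeq2. The values of Jup and Ctnna1 lay at the threshold, with adjusted p of 0.0499 and 0.0497.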

How the results depend on the processing

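With 2 libraries a group, calls on Ctnna1, Mllt4 and Tjp1 were lost on leaving out single stiff or soft libraries, and levels under 3 reads could not be ranked. Across all 20 alternatives the Cdh11, Jup and Ctnnd1 effects in Cav1KO cells and the Cdh11, Ctnnb1 and Jup effects in WT cells kept their direction and their side of the threshold. So did the genotype effects of Cdh2, Cdh11 and Pvrl2 on both substrates and that of Ctnnd1 on the stiff substrate. Where values changed otherwise, the cause was not tested.

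Values near 0 changed sign. The Pvrl2 stiffness effect became 0.0070 with median centring and 0.13 with length centring in WT cells, and 0.052, 0.17 and 0.063 with median, length and GC centring in Cav1KO cells. Its difference of effects became -3.95e-05 with a pseudocount of 0.5, and -0.044, -0.038 and -0.10 with median, length and GC centring. The Ctnnb1 genotype effect on stiff substrate became 0.00193 with DESeq2 and 0.042, 0.028, 0.17 and 0.060 with median centring, quantile normalization, length and GC centring, and its Cav1KO stiffness effect 0.11 with GC centring. The Cdh11 difference became 0.10 with quantile normalization.

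Of the counts among the 9 genes, lower calls on stiffness in Cav1KO cells became 3 without a trend. Positive differences became 1 with edgeR, 1 with a pseudocount of 0.5 and 0 without a trend, and negative ones 1 with length and 1 with GC centring. Lower genotype calls on soft substrate became 1 with quantile normalization. Of the junction lists, higher calls in Cav1KO cells became 18, 18 and 17 with median centring, quantile normalization and length centring, negative differences 2 without a trend, and lower genotype calls on soft substrate 16 at a mean of at least 5 CPM. Over all genes, positive differences became 361 with edgeR and 314 without a trend (559 as reported), and negative ones 391 without a trend (750).

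Leaving out 1 library at a time, the 9 genes gave 0 to 3 higher calls for stiffness in WT cells, 3 to 6 lower in Cav1KO cells, 0 to 4 positive differences, 2 to 5 lower genotype calls on stiff, and 2 to 5 higher and 1 to 3 lower on soft substrate. The junction lists gave 7 to 20 higher and 9 to 16 lower calls in WT cells, and 0 to 27 positive and 0 to 7 negative differences. All genes gave 1707 to 3025 higher calls in WT cells, and 36 to 1747 positive and 74 to 1689 negative differences. The Pvrl2 effects ran from -0.082 to 0.011 in WT and from -0.11 to 0.041 in Cav1KO cells, their difference from -0.076 to 0.076, and the Cdh11 difference from -0.22 to 0.046.

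The labels tie the replicate numbers to nothing, and the deviations of same-numbered libraries correlated between groups at -0.37 to 0.42, with 0.42 between WT stiff and Cav1KO stiff and -0.37 between WT stiff and WT soft. The numbers were therefore not taken as pairs. With the replicate number as a block, 37 of 43 results stayed as reported. The Mllt4 stiffness effect in Cav1KO cells (-0.56, limma adjusted p = 0.0275) and the Tjp1 difference (1.27, 0.039) passed the threshold, as did the Mllt4 genotype effect on stiff substrate (-0.53, 0.0372). The Ctnnb1 effect in Cav1KO cells (-0.18, 0.055) and the differences of Ctnna1 (0.94, 0.0512) and Jup (0.45, 0.0581) no longer did. Among the 9 genes this left 2 positive differences in place of 3, and 5 lower genotype calls on stiff substrate in place of 4.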

Other observations

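Over the 8 libraries, the genes most alike each of the 9 by Pearson correlation of log2(CPM + 1), searched among 10063 genes with a mean of at least 5 CPM, are given as a description. The 8 points share their library, and the large genotype gap sets the values for Cdh2 and Cdh11. Cdh2 was closest to Sox2 (r = 0.9997), a transcription factor of stem and neural cells that was at 22.2 to 36.4 CPM in WT and at 0 to 0.0523 CPM in Cav1KO libraries. Cdh11 was closest to Vnn3 (0.9986) and Slc9a3r1 (0.9985). Jup was closest to Bloc1s1 (0.996) and to the lysosomal protease Ctsd (0.995), which was at 212.4 to 225.7 CPM in the stiff and at 452.5 to 615.8 CPM in the soft libraries. Ctnnb1 was closest to Ndrg1 (0.991), Ctnna1 to Prrc2b (0.994) and the spectrin Sptan1 (0.991), and Ctnnd1 to Gnao1 (0.995). Mllt4 was closest to Mpdz (0.988), a scaffold with many PDZ domains, Tjp1 to Diap1 (0.989), a formin, and Pvrl2 to Saysd1 (0.987). Among the 9 themselves, Cdh2 and Cdh11 ran opposite (r = -0.99), while Ctnna1 and Tjp1 (0.96) and Cdh11 and Pvrl2 (0.98) ran together.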
